A study of Drosophila melanogaster with 3 samples.

Results

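Intronic peaks close to a transcription start site were taken from a map of the Drosophila protein CG8089. A peak was counted when its summit lay in a transcript but in no exon, and when the nearest annotated start site was 501 to 2000 bp away. There were 435 such peaks among 3233 reproducible peaks (13.5%, exact binomial 95% interval 12.3 to 14.7%). The map came from chromatin immunoprecipitation sequencing (ChIP-seq), in which DNA bound by a protein is precipitated, sequenced and summarised as peaks. Whole embryos of 0 to 24 hours and both sexes were used, from 1 transgenic line that stably makes CG8089 with green fluorescent protein (GFP) at its C terminus, and the antibody was against GFP. The study has 3 biological replicates of a single group, with the numbers 2, 3 and 4, and no second condition. Binding in different tissues and stages is averaged in such material, and the tagged copy was the only one measured. The control libraries were not analysed here, and read depth is unknown.

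The first intron of a fly gene is often long, and the sequence just behind a start site commonly holds enhancers and further start sites of the same gene. A peak there lies outside the core promoter, the short stretch where the polymerase is loaded, but close to it along the DNA. Many long genes also carry other genes within their introns, so an intronic peak may lie nearest to a start that is not its host's.

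The sequences around 6 of the strongest of these peaks are shown to give a view of the DNA that was precipitated with the tagged protein. Each run is the plus strand of dm6 from 100 bases before the summit to 100 bases after it, at chr2L:480996-481196 for the peak nearest to cbt, chr2L:6612617-6612817 for the peak nearest to CG11050, chr3R:11760952-11761152 for the peak nearest to Lk6, chr3R:5215434-5215634 for the peak nearest to cno, chr2L:3302074-3302274 for the peak nearest to CG9663 and chrX:4910258-4910458 for the peak nearest to CG32772. Capitals mark matches, on either strand, to the 6-base words ACACTG and ACAGTG and ACTGTG and CAGTGG, which overlap each other in sequence. The words were picked with earlier results of these data known. The windows near cbt and cno hold none of them.
cbt: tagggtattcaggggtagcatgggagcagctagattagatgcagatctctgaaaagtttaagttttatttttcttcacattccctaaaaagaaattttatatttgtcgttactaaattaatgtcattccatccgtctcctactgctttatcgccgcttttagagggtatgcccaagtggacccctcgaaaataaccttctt
CG11050: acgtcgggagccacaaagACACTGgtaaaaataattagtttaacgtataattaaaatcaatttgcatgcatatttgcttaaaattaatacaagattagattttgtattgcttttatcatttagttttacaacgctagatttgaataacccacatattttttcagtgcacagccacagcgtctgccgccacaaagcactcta
Lk6: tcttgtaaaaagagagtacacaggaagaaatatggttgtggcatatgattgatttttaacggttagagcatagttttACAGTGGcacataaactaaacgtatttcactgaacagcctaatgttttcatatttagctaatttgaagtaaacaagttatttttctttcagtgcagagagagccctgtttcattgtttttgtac
cno: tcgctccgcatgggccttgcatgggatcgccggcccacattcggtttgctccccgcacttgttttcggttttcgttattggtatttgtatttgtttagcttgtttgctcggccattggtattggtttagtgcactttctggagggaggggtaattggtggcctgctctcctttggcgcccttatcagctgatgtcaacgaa
CG9663: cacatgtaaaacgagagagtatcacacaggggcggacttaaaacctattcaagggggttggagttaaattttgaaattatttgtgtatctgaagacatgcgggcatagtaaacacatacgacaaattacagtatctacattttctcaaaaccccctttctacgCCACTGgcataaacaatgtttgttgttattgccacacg
CG32772: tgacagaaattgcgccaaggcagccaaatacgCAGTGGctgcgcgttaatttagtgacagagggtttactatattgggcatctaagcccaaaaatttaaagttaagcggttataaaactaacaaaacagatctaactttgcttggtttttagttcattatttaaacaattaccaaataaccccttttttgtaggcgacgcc

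Of the 4 words, ACACTG and ACAGTG had the highest ratios of their share in these peaks to that in weaker near-start intronic peaks. A further 4 windows of 50 bases on each side of the summit were chosen because they hold ACACTG or ACAGTG. They lie at chr3L:12407069-12407169 for SCaMC, chr3L:16660598-16660698 for Baldspot, chr3R:21113164-21113264 for Rab11 and chrX:6265528-6265628 for schlank, again on the plus strand of dm6. Rab11 encodes a small GTPase of recycling endosomes, and schlank a ceramide synthase. In Baldspot the run of capitals is one 8-base stretch in which 3 of the words overlap. In SCaMC and Rab11 the word stands alone.
SCaMC: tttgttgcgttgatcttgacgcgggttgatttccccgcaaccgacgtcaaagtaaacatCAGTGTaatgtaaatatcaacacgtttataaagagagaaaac
Baldspot: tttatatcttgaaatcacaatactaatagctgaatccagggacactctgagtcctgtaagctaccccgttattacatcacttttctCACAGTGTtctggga
Rab11: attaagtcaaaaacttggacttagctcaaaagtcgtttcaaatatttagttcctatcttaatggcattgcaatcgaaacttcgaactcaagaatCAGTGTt
schlank: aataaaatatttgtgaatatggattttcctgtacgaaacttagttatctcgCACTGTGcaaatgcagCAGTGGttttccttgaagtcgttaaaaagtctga

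Every summit was intronic, as the class requires, but peaks are wider than their summits. Their median width was 396 bp, and 49 peaks touched an exon, 75 reached into the 500 bp around a start site and 329 touched neither. The median distance to the nearest start was 1040 bp, from 501 to 1977 bp. The introns that held them were long, with a median of 5854 bp. At the lower limit the peaks of Mtp (501 bp) and jar (503 bp) were just inside, and those of RapGAP1 (499 bp) and vri (497 bp) just outside. At the upper limit those of ZnT63C (1971 bp) and CG43658 (1977 bp) were just inside, and peaks in hiw (2007 bp) and lncRNA:CR44320 (2010 bp) just outside.

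Most of the peaks followed the start of the gene they lay in. Of the 435, 255 (58.6%) lay downstream of their own gene's nearest start, 113 (26.0%) lay upstream of an internal start of the host, and 67 (15.4%) were nearest to a start of another gene. That other gene was protein-coding in 31 cases and of biotype ncRNA in 27, with 4 snoRNA genes, 4 tRNA genes and 1 pseudogene as the rest. At least 1 host transcript had the summit in its first intron for 365 peaks (83.9%). With introns of canonical transcripts only, a setting added after the data were seen, 362 peaks remained and 67.4% were in a first intron. The shares by side and by first intron are given without those of all intron sequence in the window. They describe where the peaks lay and show no preference. The median signal, the authors' measure of peak strength within a list, was 180 for the downstream peaks, 190 for those upstream of an internal start and 179 for those nearest to another gene.

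Summits were dense in these introns and thinned out with distance from the start. There were 38.1 reproducible summits per Mb of intron at 501 to 2000 bp, against 14.3 in introns further away, 11.5 between genes and 93.8 within 500 bp of a start. Among the 3233 strongest peaks of each replicate, the near-start density was 35.4 per Mb in replicate 2, 38.9 in replicate 3 and 40.5 in replicate 4, and that of far introns 13.0, 14.8 and 13.8. The log2 ratio of near to far was 1.44, 1.40 and 1.55, a mean of 1.46 ± 0.08 (SD, n = 3). An exact two-sided sign-flip permutation test over the 3 replicates gave p = 0.25, the smallest it can give, so this design allows no call at 0.05. All 3 replicates had the same direction.

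Within the window the decline was gradual. In the reproducible list the density was 47.5 per Mb at 501 to 750 bp, 46.4 at 751 to 1000 bp, 34.7 at 1251 to 1500 bp and 27.5 at 1751 to 2000 bp, and 16.6 at 5001 to 10000 bp. Each replicate was highest in the first bin, with 48.8, 49.2 and 54.9 per Mb. The order was strict in replicates 3 and 4, whereas replicate 2 rose slightly between neighbouring bins at 1251 and at 1751 bp.

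**Figure D1:**
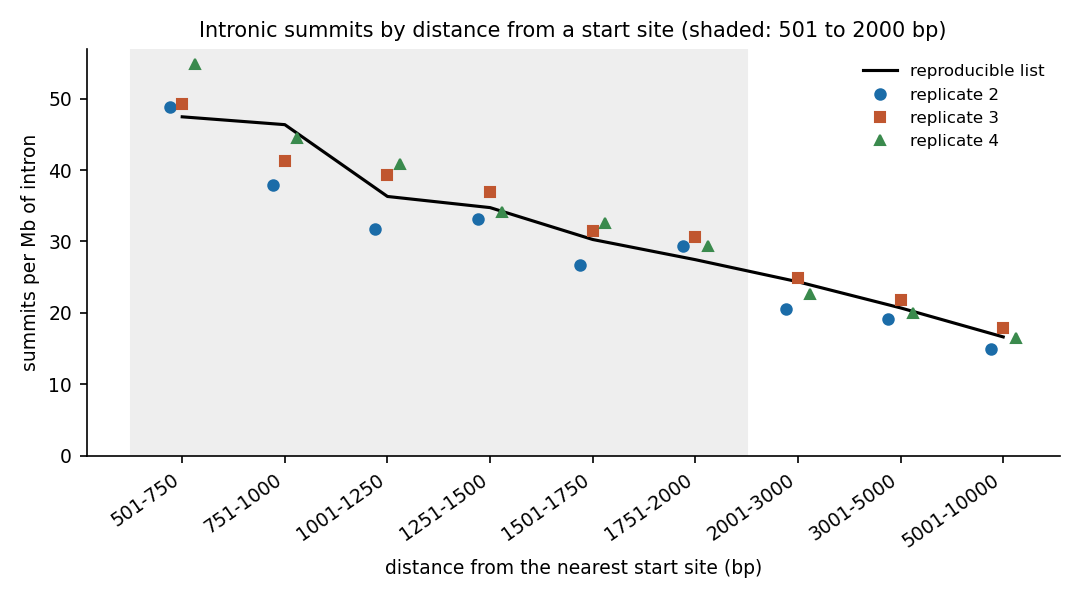
Summits per Mb of intron (y axis) by distance from the nearest annotated start site in bp (x axis), for the reproducible list (line) and the 3233 strongest peaks of each replicate (points); the shaded bins are the 501 to 2000 bp window. The line falls from 47.5 per Mb in the first bin to 16.6 in the last, and all 3 replicates follow it.

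The strongest peak of the reproducible list belonged to this class. It lay in the first intron of stw, which encodes a laccase of cuticle tanning, 546 bp from the start (chromosome 2R, 5416387 to 5417008), and ranked 1 in each replicate with a signal of 1896 in replicate 2, 1387 in replicate 3 and 1400 in replicate 4. Replicate signals are on separate scales, so ranks are compared across lists. The class held 5 of the 25 strongest reproducible peaks (20%), 8 of 50 (16%), 19 of 100 (19%) and 32 of 200 (16%), beside its 13.5% of the whole list. Its median signal was 182, against 167 in far introns and 178 at promoters. The median rank of the class in the replicates' own lists was 1705, 1399 and 1589, and that of far introns 1787, 1716 and 1715. The class ranked stronger than far introns in each replicate, by 175 ± 125 places (SD, n = 3; exact sign-flip permutation p = 0.25). Against promoters it ranked weaker in replicates 2 and 4, by 289 and 56 places, and stronger in replicate 3 (mean difference 36.2 ± 263 places; exact permutation p = 0.75, n = 3).

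Several of the strongest peaks kept nearly the same place in every replicate. The peak at rank 3 lay in the first intron of ush, a cofactor of GATA factors, 1408 bp from the start of cbt, a zinc-finger transcription factor, and ranked 4 in replicate 2, 4 in replicate 3 and 6 in replicate 4. The peak of Lk6, a kinase of the translation factor eIF4E, ranked 14, 14 and 15. That of CG11050 ranked 16, 8 and 16. The widest spread among these was 8 to 16.

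Other peaks of the top 25 moved more between replicates. The peak of cno, which links adherens junctions to actin, ranked 73 in replicate 2, 9 in replicate 3 and 21 in replicate 4. That of InR, the insulin receptor, ranked 176, 49 and 75. The peak in for, which encodes a cGMP-dependent kinase, ranked 292, 83 and 111. In these 3 genes replicate 2 was the weakest. For Adf1, a transcription factor, replicate 3 was the weakest, at 35, 141 and 51, and likewise for S (Star), which traffics EGFR ligands, at 307, against 135 in replicate 2. The rest of the 25 lay at or in CG9663, CG32772, HmgZ and HmgD (chromosomal HMG-box proteins), NFAT, CG31635, Trl (the GAGA factor), CG3726, mub (an RNA-binding protein), LPCAT (a phospholipid acyltransferase), CG9837, Mad (the SMAD of BMP signalling), wde (a partner of a histone methyltransferase), ImpL2 (a secreted binder of insulin-like peptides), Zw (glucose-6-phosphate dehydrogenase, nearest to the start of asRNA:CR44512), norpA (the phospholipase C of phototransduction) and chif (an activator of replication kinase) with Hyls1. All 25 were recovered by the 3 replicates.

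**Figure D2:**
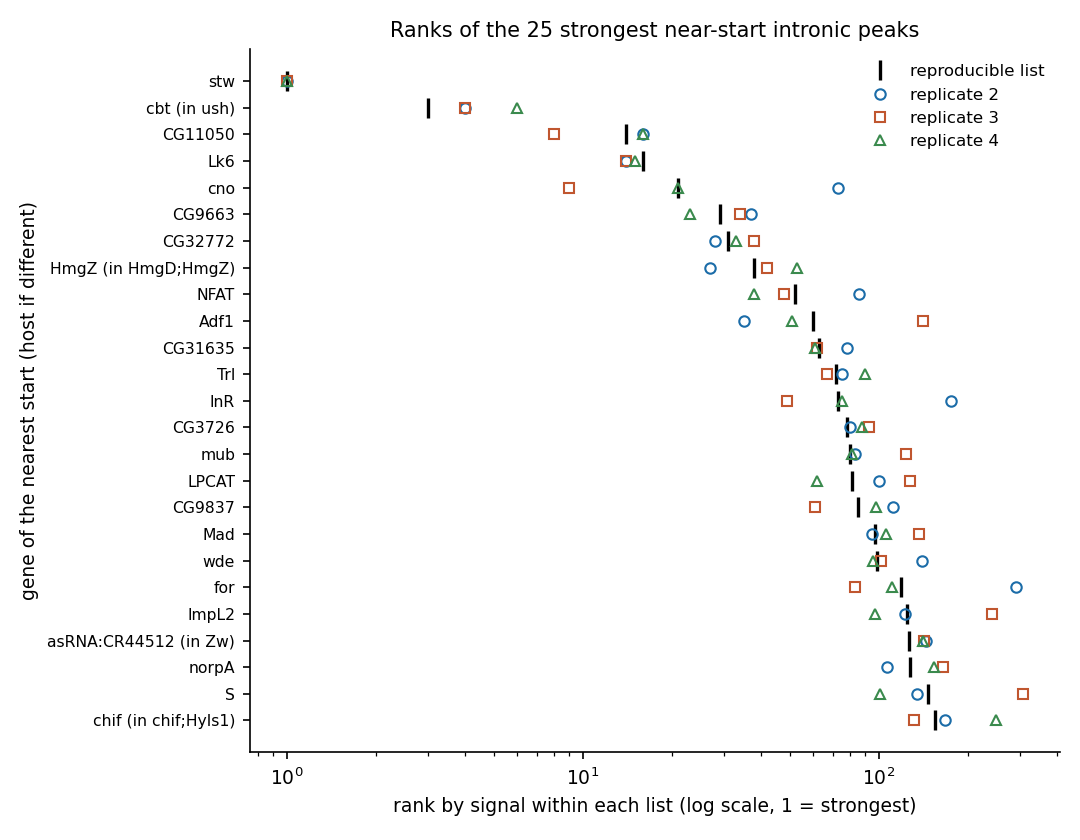
Rank by signal (x axis, log scale, 1 is strongest) of the 25 strongest near-start intronic peaks in the reproducible list (bars) and in each replicate's own list (open symbols), named by the gene of the nearest start (y axis). The stw peak is first in all 4 lists, while cno, Adf1 and for are spread widely.

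All 3 replicate lists held 410 of the 435 peaks, and the others have no rank in at least 1 list. Among the 410, the 5 peaks whose ranks differed most ranked 1563 to 2725 in the reproducible list. In replicate 2, the peak of Caper, an RNA-binding protein, ranked 29424, against 2127 in replicate 3 and 2830 in replicate 4. That of Pect, an enzyme of phosphatidylethanolamine synthesis, ranked 28282, 1592 and 2257. That of COX7AL2 ranked 26862, 1124 and 8492, and one in RapGAP1, nearest to lncRNA:CR44082, 22974, 1182 and 1924. Acsl, an acyl-CoA synthetase, went the other way, with ranks of 1979, 26019 and 416. Replicate 2 was low in 4 of the 5 and replicate 3 in the other.

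Recovery by a replicate meant that the peak held at least 1 summit from the replicate's 3233 strongest peaks. Replicate 2 recovered 77.2% of the class against 78% of all reproducible peaks, replicate 3 recovered 80.5% against 75.9%, and replicate 4 recovered 85.1% against 80.5%. The pooled list was built from these replicates, so recovery is not independent of it. The mean was 80.9% ± 3.93, and in far introns 76.5% ± 3.28, a difference of 4.38 ± 2.55 percentage points (SD, n = 3; exact sign-flip permutation p = 0.25). All 3 replicates recovered the class more often than far introns. Against promoters the difference was 2.38 ± 5.03 points (p = 0.5 by the same exact permutation test) and replicate 2 went the other way.

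Recovery followed peak strength within the class. Both rest on signal from the same replicates, so such a gradient is largely built in. Recovery was 99.7% ± 0.53 in the strongest of 4 equal groups, then 93.0% ± 8.22 and 80.4% ± 2.65, and 50.8% ± 6.89 in the weakest (SD, n = 3). All 3 replicates recovered 251 peaks (57.7%), against 51.9% of all reproducible peaks. When the reproducible list was cut at its middle rank, a division added after the data were seen, recovery was 95.8% for both near and far introns among the stronger peaks, and 64.1% and 61.2% among the weaker ones. Of the pooled peaks in near-start introns, 13.5% were kept in the reproducible list, against 10.8% of all pooled peaks, 9.33% in far introns and 18.7% at promoters.

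Occupancy of the start itself was uncommon. A second reproducible summit lay within 500 bp of the nearest start for 89 of 435 peaks (20.5%, 95% interval 16.8 to 24.6%), against 11.7% of all annotated start sites. The share was 18.4% for peaks in far introns and 12.9% between genes. For the replicates' own lists it was 18.5%, 23.1% and 21.6% near starts and 14.1%, 25.3% and 17.5% in far introns, a difference of 2.12 ± 3.73 points (n = 3; exact sign-flip permutation p = 0.5), with replicate 3 opposite to the others. Against intergenic peaks the difference was 6.96 ± 1.46 points and had one direction in all 3 (exact permutation p = 0.25). By side, the share was 23.5% for peaks downstream of their own start (60 of 255), 15.9% upstream of an internal start (18 of 113) and 16.4% near another gene's start (11 of 67).

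The peaks were spread over 397 host genes. A protein-coding host held 424 of them, and 54 genes held at least 2. Those with 4 were CHES-1-like, a forkhead gene, HmgZ, NFAT and Svil, a supervillin. With 3 were CG43658, CG9837, HmgD, Tpr2, ps, which encodes an RNA-binding splicing regulator, and zfh1, a zinc-finger homeodomain factor. HmgZ and HmgD share 3 of their peaks because the genes overlap. Of these 3, the peaks at ranks 38 and 304 cover nearly the same interval. Both were matched to the same peak in each replicate, at ranks 27, 42 and 53. CG1677 held 8, and lncRNA:CR44357 held 9 that include the same 8. Of the 435 peaks, 14 overlapped another of them. CG8089 hosted none.

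The 8 peaks of CG1677 are all nearest to other genes' starts. A long transcript of CG1677 (chromosome X, 7281089 to 7405797 on dm6, minus strand) spans 13 further genes. The gene lncRNA:CR44357 (7166451 to 7405797, minus strand) covers the same span, and the 8 summits lie in introns of both. Sequence between the 13 genes is thus counted as intronic. Of 12 reproducible summits in the 124.7 kb span, 8 were in the class. They lay near unc-119, brk, Dok, CG42780 and CBP. The peak 795 bp upstream of brk, which encodes the Brinker repressor of BMP target genes, ranked 611 in the reproducible list, and 643, 767 and 629 in replicates 2, 3 and 4. The strongest of the 8, 1029 bp from the start of CBP, had a signal of 421, below the 705 of the promoter peak of CBP next to it.

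**Figure D3:**
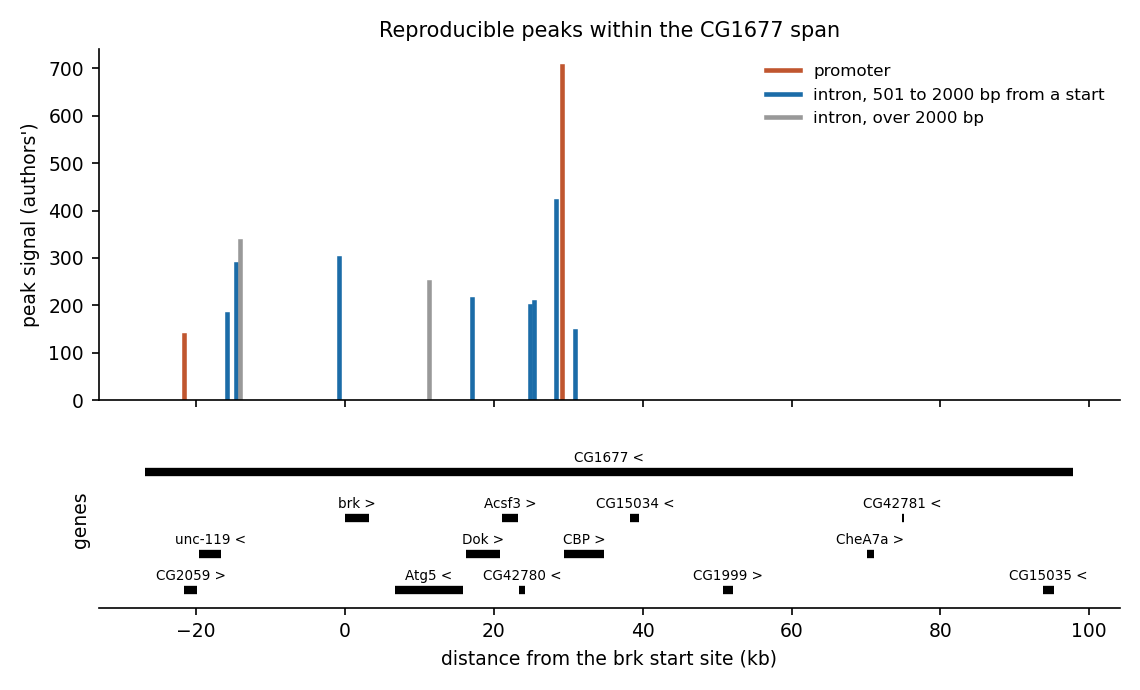
Reproducible peaks in the CG1677 span, with the authors' signal (y axis, upper panel) against distance from the brk start in kb (x axis). The lower panel shows CG1677 and the genes within its span, with > and < for plus and minus strand. The longer lncRNA:CR44357 is not drawn. The 8 blue bars are peaks of the class, and all 12 summits lie in the part of the span that reaches from CG2059 to CBP.

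The class was denser on the X chromosome. The X held 110 of the 435 peaks (25.3%) and 579 of all 3233 reproducible peaks, and the class had 49.98 per Mb of near-start intron, against 35.2 on the autosomal arms. Both densities were computed after earlier results of these data were known, and X was not compared with the autosomes in other classes. The log2 ratio of X to autosomes was 0.46, 0.32 and 0.40 in replicates 2, 3 and 4, a mean of 0.39 ± 0.07 (SD, n = 3). Without the CG1677 span it was 0.30 ± 0.08, and for both the exact sign-flip permutation test gave p = 0.25. Embryos of both sexes were pooled, and the part of X dose in this was not tested.

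Of 22 motifs searched on both strands, those of housekeeping promoters were rarer here than in promoter peaks, and rare in far introns too. The DNA replication-related element (DRE, TATCGATA), which is bound by Dref at many housekeeping promoters, was within 100 bp of the summit in 1 of 435 peaks (0.23%) and in 7.00% of promoter peaks. It was in 0.169% of far intronic peaks, 0.293% of weaker near-start intronic peaks and 3.8% of all reproducible peaks. In the replicates' own lists it was in 0.37% ± 0.24 and 6.57% ± 0.22, lower in all 3 (SD, n = 3; exact sign-flip permutation p = 0.25). The core of Motif 1 (GTCACACT), another element of such promoters, was in 1 of 435, in 4.41% of promoter peaks, 1.02% of far intronic peaks and 2.6% of all reproducible peaks. No window held the BEAF sequence, which allows a share of up to 0.69% (3 counts of 435). It was in 0.433% of all reproducible peaks and in 0 of 591 far intronic peaks. The TATA word TATAAA was in 30.6%, against 28.9% at promoters, 27.6% in far introns and 28.1% of all reproducible peaks. In weaker near-start intronic peaks it was in 20.9%. GAGAGAG, the GAGA element, was in 6.67% of the class, 5.49% of the weaker peaks, 3.72% of far intronic and 4.73% of all reproducible peaks. In the same order, AGATAA of GATA factors was in 16.3%, 11.7%, 16.1% and 13.1%, and CAGGTA of Zelda in 4.14%, 4.21%, 6.43% and 4.48%. The core of CTCF (AGATGGC or AGAGGGC or AGGTGGC or AGGGGGC) was in 6.90%, against 8.97% in far introns, and 246 of 2732 weaker peaks held it.

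The 4 words in the capitals above were more frequent than in weaker near-start intronic peaks. Those are the pooled peaks of all such introns that overlap no reproducible peak. ACACTG was in 18.2% of the class, in 274 of 2732 weaker pooled peaks and in 20.9% of all reproducible peaks. ACAGTG was in 22.5% of the class, 14.3% of the weaker peaks and 19.3% of all reproducible peaks. In far introns these words were in 19.8% and 20.1%. In the windows 1000 bp to either side of the summit they were in 8.05% and 9.43%. Per replicate, ACAGTG was in 23.7%, 22.7% and 21.6% of its own strongest near-start peaks, 10.4 ± 1.43 points above its weaker ones (SD, n = 3; exact sign-flip permutation p = 0.25). ACAGTG was in 29.0% of the 217 strongest peaks of the class and 16.1% of the 218 others. The other words differed less, with 20.7% and 15.6% for ACACTG, 19.4% and 15.6% for CAGTGG, and 15.7% and 16.1% for ACTGTG, which went the other way.

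Any of the 4 words was in 44.1% of the class, 43.7% of far intronic peaks, 41.9% of promoter peaks and 32.1% of weaker near-start intronic peaks. The class was poorer in G and C than the weaker peaks, with medians of 36.3% and 42.8%. Among windows of 30 to 40% GC, a limit added after the data were seen, the share was 45.6% (118 of 259) and 31.5% (281 of 891). Matches were most frequent at 50 to 100 bp from the summit, with 4.57 per peak and kb, and were at 1.45 to 2.14 beyond 250 bp. In the promoter peaks the number fell from 3.83 at 50 to 100 bp to about 2 as far out.

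**Figure D4:**
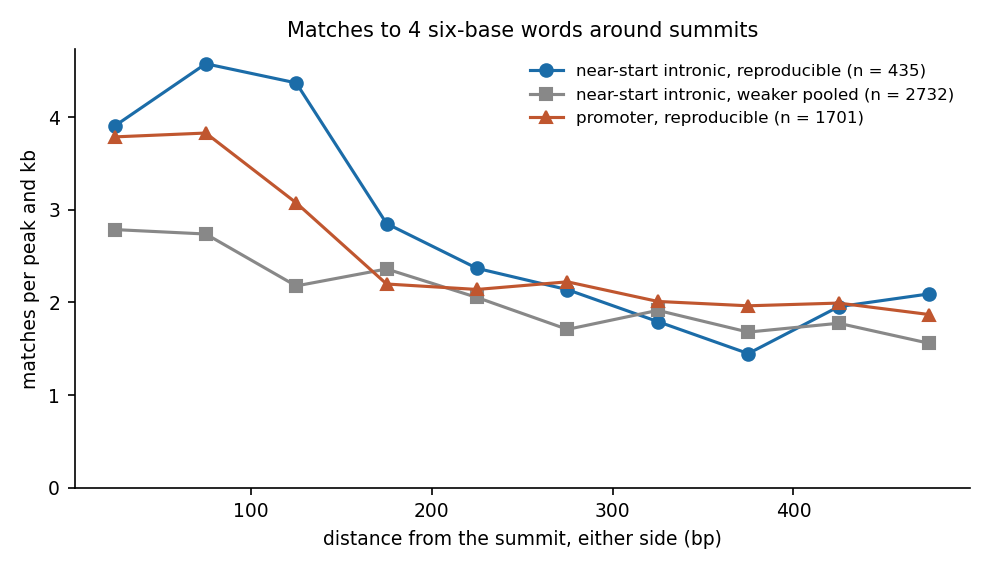
Matches to ACACTG and ACAGTG and ACTGTG and CAGTGG on either strand per peak and kb (y axis) against distance from the summit (x axis, both sides together, bins of 50 bp). The reproducible near-start intronic peaks reach 4.57 at 50 to 100 bp, where the weaker ones have 2.74, and at 450 to 500 bp the values are 2.09 and 1.56.

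The host genes were set beside 19 gene lists, by the share of each list's eligible genes, those with intron 501 to 2000 bp from a start, that held a peak. Of all 9428 eligible genes 397 did (4.21%), and of 9005 protein-coding ones 380 (4.22%). The share rose with the length of such intron, from 0% to 0.185%, 2.94% and 13.8% over 4 groups of protein-coding genes of nearly equal size, so every list is to be read against that. The lists were made with earlier results of these data known.

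Over all eligible genes, 2 lists of signalling genes had the highest of the 19 shares. In the EGFR, FGFR and Ras list 12 of 49 eligible genes held a peak (24.5%), led by S, drk (the Grb2 adaptor), Src64B and edl, a regulator of ETS factors. In the BMP and activin list it was 6 of 26 (23.1%), led by Mad, wit (a type II receptor), shn (a zinc-finger partner of Mad) and magu. Among genes of the group with the longest such intron alone, where 13.8% of all genes held a peak, the order was another. Chromatin regulators were then highest with 8 of 19 (42.1%), followed by RNA-binding proteins with 11 of 30 (36.7%), BMP and insulin genes with 5 of 14 each (35.7%), JNK genes with 5 of 16 (31.2%) and EGFR genes with 9 of 30.

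RNA-binding proteins followed with 12 of 71, led by mub, brat (a translational repressor), pum (Pumilio) and larp. The shares were 5 of 30 for JNK and stress signalling (Socs36E, msn, Mekk1 and Ptp61F), 6 of 38 for bZIP and bHLH factors (crp, sima, kay and Mnt) and 8 of 57 for zinc-finger factors (ush, zfh1, lola and br). They were 5 of 39 for Wingless and Hedgehog genes (boi, Wnt4, ptc and gish), 5 of 40 for insulin and TOR genes (Lk6, InR, ImpL2 and pico, an actin regulator of the lamellipodin family) and 8 of 68 for chromatin regulators (Trl, wde, tou and Smr). Some named hosts, in these and the other lists, held a peak whose nearest start belonged to another gene. Examples are EcR, drk, wit, ush, kay, lola, ptc, fra, NetB and KCNQ.

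Without regard to intron length, the remaining lists lay nearer to the share of all genes. They were nuclear receptors with 2 of 18 (EcR and Hr4), axon guidance with 5 of 47 (fra, NetB, Ptp10D and Ten-a), Notch with 2 of 22 (neur and numb), cell adhesion with 6 of 67 (crb, kirre, par-1 and rhea) and ion channels with 5 of 61 (KCNQ, Irk1, Piezo and Itpr). Homeodomain and other developmental factors had 3 of 85 (jumu, aop and hth), Hippo 1 of 25 (crb) and cuticle tanning 1 of 24 (stw). In the group with the longest such intron, these lists lay on both sides of the 13.8% of all genes there. Notch had 2 of 10, nuclear receptors 2 of 13, ion channels 5 of 36 (13.9%) and axon guidance 4 of 32 (12.5%). Cuticle tanning had 1 of 9 (11.1%), cell adhesion 5 of 48 (10.4%), homeodomain factors 3 of 45 (6.67%) and Hippo 0 of 8. Of 26 eligible cytoplasmic and 22 mitochondrial ribosomal protein genes, 0 held a peak, which allows shares of up to 11.5% and 13.6%, and 0 and 1 of them are in the group with the longest such intron.

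**Figure D5:**
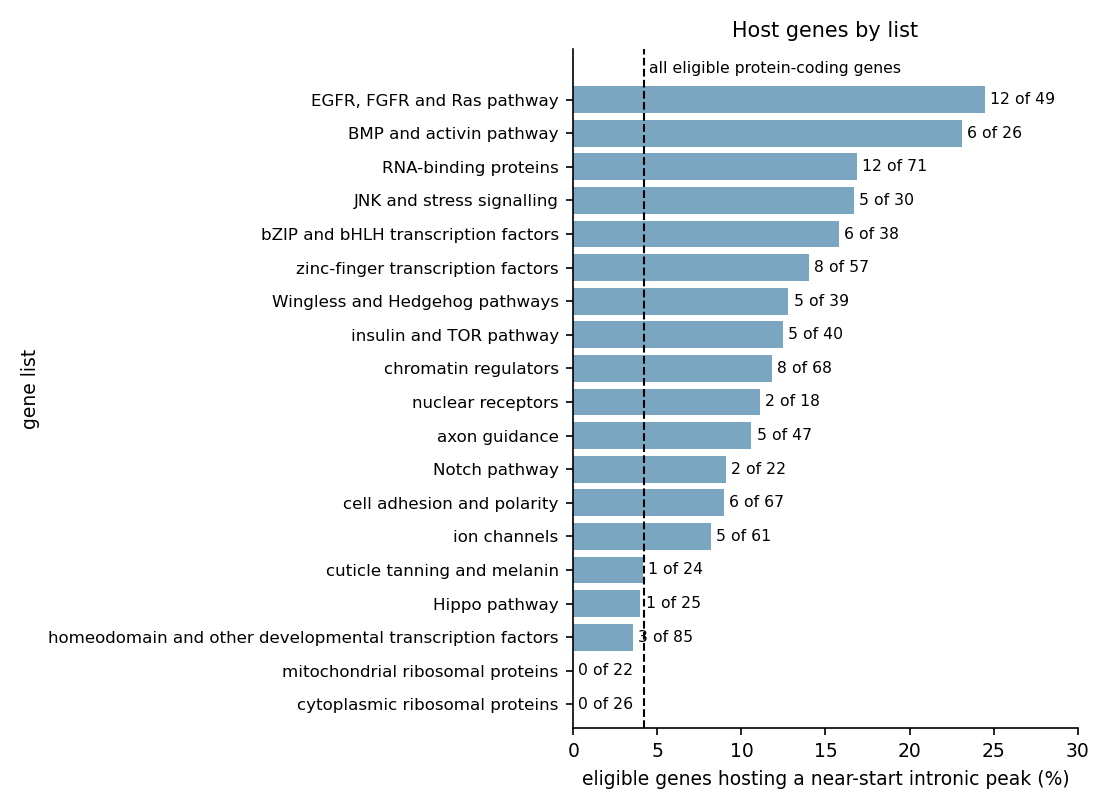
Share of eligible genes of each list that host a near-start intronic peak (x axis, percent; y axis, the 19 lists), with the counts beside the bars; the dashed line is the 4.22% of all eligible protein-coding genes. The EGFR and BMP lists reach 24.5% and 23.1%, and the 2 ribosomal lists are at 0.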

How the data were processed

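CG8089 ChIP-seq peak lists of 3 replicates were analysed. The deposited dm6 lists hold a peak position, a summit offset and a signal, by which the authors scored peak strength. The sources used here do not state its scale, the caller and its version, or the reproducibility threshold. Depth is unknown, so no precision was derived from it; the intervals given cover counting error only. Sonication gave fragments of 200 to 800 bp, according to the labels. Each replicate list and the pooled list have 30000 peaks; all 123233 peaks of the 5 lists end within the Release 6 chromosomes.

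Start sites, exons and introns came from Ensembl release 115, without transposable elements (18164 genes on 6 chromosomes, 23581 distinct start sites). Sequences came from the RefSeq Release 6 genome. Replicates were compared by the exact two-sided sign-flip permutation test over 3 within-replicate differences between classes, smallest p 0.25. Replicate numbers occur in 1 group only, so no pairing was checked.

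Members, gene lists, words and tests were chosen with earlier results of these data known. Named are the hosts and nearest genes of the 25 strongest peaks. The same holds for the 5 with the largest rank spread among peaks in all 3 replicate lists. Also named are up to 4 hosts per list, hosts with 3 or more peaks, those beside the limits, and CG8089. CG1677's neighbours, the X, the union of 4 words, the replicate shares of words against promoter and weaker peaks, the ranking of all words, the 30 to 40% GC limit, the cut at the middle rank and the groups by intron length were added after values were seen. Printed sequences leave out 1 chromosome arm, so the longer windows are the 6 strongest peaks outside it. The shorter windows were taken from peaks whose own window holds the word, a reading settled after some windows proved to lack it. Of the list names, 38 had no match. 1 gene list and 1 sequence window are not reported here. The code recovered planted answers in simulated data. Python 3.11.15, numpy 2.4.6, scipy 1.17.1 and matplotlib 3.10.9 were used.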

Additional observations from a re-analysis of the deposited data

How the results depend on the processing

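No paired analysis was possible because the samples form 1 group, so replicate numbers pair no samples across groups; the differences tested are between classes within a replicate. The 12 results were recomputed under 19 settings, giving 150 values. Of these, 126 counted as unchanged and 24 as moved. Direction was judged only for near minus far recovery and the log2 density ratio, and 0 of their values changed it. Most results were judged by the replicate spread, the binomial interval or 1.5 times the count. Near minus far recovery and the log2 density ratio were not held to the spread, and values outside it counted as unchanged. The log2 ratio (1.46 ± 0.08) was 1.26 for distances above 1000 and up to 2000 bp, and 1.63 in the stricter list. Near minus far recovery (4.38 ± 2.55 points) was 1.02 points with whole replicate lists. Distance windows of 501 to 1000 bp and from there to 2000 bp gave 207 and 228 peaks in 203 and 209 protein-coding hosts, and DRE fell to 0% in the latter. The stricter list, cut at the middle rank, gave 231 peaks, 215 hosts, a median rank of 841, an occupied start in 11.3% and ACAGTG in 27.7%. With a replicate left out, only members recovered by each remaining replicate were kept, and that filter can only lower the count. The count was then 276 to 307, the median rank 1054 to 1118 and the occupied share 22.8 to 25%. Before the filter, recovery was 78.9 to 82.8%, near minus far recovery 3.13 to 5.68 points and the log2 density ratio 1.421 to 1.498. Recovery was 50.2% with replicate lists as short as the stricter list and 98.1% with whole lists. A start window of 250 bp gave 14.3% occupied. ACACTG was in 7.13% within 50 bp and 25.5% within 200 bp, and ACAGTG in 11.03% and 34.9%; windows of 30 to 40% GC had DRE in 0%. Canonical introns gave a first-intron share of 67.4%. Shorter windows and lists hold fewer peaks, the recovery filter keeps fewer, and shorter flanks hold fewer bases. Apart from that, the cause of these shifts was not tested. With 3 replicates no test can pass 0.05, and the unknown depth limits what absence of a peak means.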

Other observations

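All words of 5, 6, 7 and 8 bases found in at least 30 (5 and 6 bases) or 15 (7 and 8 bases) of the 435 peaks, 3497 in all, were ranked by their excess over the 2732 weaker near-start intronic peaks. The ranking was made after the other results were seen, and no word in it was tested. Words rich in A and T led it, such as TAATA (54.7% against 37.3%) and GTTAAA (24.1% against 12.3%), and the class is poorer in G and C than the weaker peaks. The 7-base list was led by ACACTGA, in 39 peaks (8.97%) against 2.96%, which extends one of the 6-base words. CACTGAAA, at place 3 among 8-base words, was in 25 peaks (5.75%) against 1.68%.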
